A study of Homo sapiens with 2 samples.

Results

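The genes described here are 43 members of the ATF4 stress response in PC-3 cells, in 3 groups set by role: 14 ATF4-driven stress genes, 13 enzymes of amino acid and one-carbon synthesis, and 16 cytosolic tRNA synthetases. They were listed by gene name, with earlier results of these data known, from the 19775 genes that the array annotation reads with probe sets of a single gene. A gene's value came from whichever of its probe sets had the highest mean log2 signal, and 39 of the 43 were measured, meaning that the higher of their 2 signals lay above 47.9, the median of all signals. The same held for 12931 genes in all.

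ATF4 is a transcription factor whose mRNA is always present but is translated mainly when the initiation factor eIF2 is phosphorylated, as happens under amino acid shortage, endoplasmic reticulum stress, viral RNA or haem deficiency. It pairs with C/EBP proteins on composite elements in its target genes, which supply amino acids, charge tRNAs, and, under lasting stress, promote death through DDIT3. Because its own control is translational, the mRNA of its targets reads its activity more directly than the mRNA of ATF4 does. In tumours the pathway is known to sustain serine, asparagine and one-carbon supply.

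The study compared PC-3 cells carrying a control shRNA vector (siCONTROL) with PC-3 cells carrying an shRNA vector against SHISA2 (siSHISA2), 1 array each. PC-3 is an established human prostate cancer line without androgen dependence, derived from a bone metastasis. SHISA2 is a membrane protein of the endoplasmic reticulum, and its own signal in the knockdown array was 42.6% of that in the control array (1506 against 3536). The number of cultures, shRNA sequences and clones, the medium and the time of harvest are not given in the sources used here, and with 1 array a side the knockdown cannot be told apart from other effects of the vector or the culture. There were no replicates, so no p-value was computed, and a size is read only against the spread of all genes and of the probe sets within genes. That within-gene spread, taken as the SD over genes of the gap in log2 ratio between the 2 strongest probe sets and scaled to 1 probe set (division by root 2), was 0.155 with the floor at 387.3 (the 75th percentile of signals) and 0.286 at the floor of 47.9.

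The labelled cell type was checked by its markers. The keratins KRT18 (18340 in control, 17533 in knockdown) and KRT8 (2283 and 1990) were high, while KRT19 and CDH1 were not above the floor. Of the 5 luminal prostate markers, KLK3 read 242.3 and 251.0, KLK2 went from under the floor to 71.3 (at least 1.489-fold higher), TMPRSS2 was not above the floor, and 2 had no single-gene probe set in the annotation used. The summed signals of the leukocyte, endothelial and fibroblast markers were 170.3, 277.9 and 904.0 in the control array and 264.7, 402.4 and 689.5 in the knockdown array, with 2 of 5, 2 of 4 and 2 of 7 genes measured, and with PTPRC, KDR, VWF and COL3A1 under the floor. As a reading of RNA quality, 3' probe sets exceeded 5' ones by factors of 5.0 (control) and 4.79 (knockdown) for ACTB and of 1.55 and 1.36 for GAPDH.

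The regulatory sequences through which these genes are known to be reached are shown first, because the measured ratios are read against them below. The C/EBP-ATF response element (CARE) has the core TGATGNAA. It was searched on both strands in the RefSeq windows of 250 bases before to 50 bases after each start site (GRCh38.p14), which were found for 36 of the 43 members. The core occurred in 11 of these 36 genes (30.6%), against 4.46% of the 27305 genes and 3.62% of the 35116 windows in the RefSeq table. The carriers were 2 of 13 stress genes, 2 of 10 synthesis enzymes and 7 of 13 tRNA synthetases. A match is a description of letters and not a bound site, and some genes are known to hold the element outside such a window. The 11 matches are printed with 11 bases on each side, in the direction of the gene, with the core in capitals (as its reverse complement where it lies on the other strand):
CEBPG (chr19:33374060-33374089, plus strand): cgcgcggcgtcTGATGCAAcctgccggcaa
CHAC1 (chr15:40953251-40953280, plus strand): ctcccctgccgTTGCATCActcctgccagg
ASNS (chr7:97872458-97872487, minus strand): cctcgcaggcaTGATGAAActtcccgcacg
MTHFD1L (chr6:150866346-150866375, plus strand): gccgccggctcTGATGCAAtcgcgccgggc
AARS1 (chr16:70289675-70289704, minus strand): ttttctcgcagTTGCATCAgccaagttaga
CARS1 (chr11:3057407-3057436, minus strand): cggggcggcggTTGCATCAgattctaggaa
GARS1 (chr7:30594834-30594863, plus strand): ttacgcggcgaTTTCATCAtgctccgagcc
IARS1 (chr9:92293692-92293721, minus strand): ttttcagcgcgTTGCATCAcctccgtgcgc
MARS1 (chr12:57488053-57488082, plus strand): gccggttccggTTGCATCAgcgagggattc
NARS1 (chr18:57621804-57621833, minus strand): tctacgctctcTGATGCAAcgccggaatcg
TARS1 (chr5:33440956-33440985, plus strand): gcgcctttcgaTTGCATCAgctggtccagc

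The core began 42 bases before the start site in CEBPG, 68 before it in ASNS and 209 before it in CHAC1, and in 6 of the 7 tRNA synthetases it began between 33 bases before and 14 bases after the start site. In AARS1 it began 187 bases before. The ASNS match is the known nutrient-sensing element of that gene. The palindromic cyclic AMP response element TGACGTCA, which did not overlap any CARE match, was found in 1 member, PPP1R15A, 58 bases before its start site (1.85% of windows). The endoplasmic reticulum stress element was found in none of the 36 (0.0769% of windows).

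Across the members, ratios between the arrays were small. Of the 37 members with both signals above 387.3, called strong here, log2 ratios (knockdown over control throughout) ran from -0.21 to 0.61 with a median of 0.06. Their SD was 0.16, against 0.22 for the 7650 genes of the array with such signals. Within 1 within-gene spread (0.155) of 0 lay 23 of the 37 (62.2%), against 59.7% of those 7650 genes, and beyond 2 such spreads lay 2 (5.41%, DDIT3 and WARS1) against 12.6%. For mean signals above 2000 the SD was 0.17 over 29 members and 0.18 over 3406 genes. The spread of the strong members' ratios was thus no wider than that of all strong genes. Over all 39 measured members, with the weak ADM2 and NUPR1 included, the SD was 0.39. It was 0.34 over all 12931 measured genes.

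More members stood above 0 than below it. As deposited, 25 of the 39 measured members were above 0 (64.1%), where 52.2% of all measured genes were, and 25 of the 37 strong ones (67.6%), where the share of all strong genes was 50.2%. Quantile normalization and removal of a loess trend lowered the count to 23 of 40 and 23 of 39, where 50.2% of all genes stood above 0 in each. At a size of 1.2-fold, 4 of the 37 were higher (10.8%, against 7.65% of strong genes) and 0 were lower (against 10.4%). The 4 were WARS1, DDIT3, SHMT2 and PSPH. WARS1 alone reached 1.5-fold on the higher side (0.732% of strong genes did so), and the 2 members that reached 2-fold, ADM2 and NUPR1, were lower and had weak signals (0.565% of all measured genes were at least 2-fold lower).

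**Figure D1:**
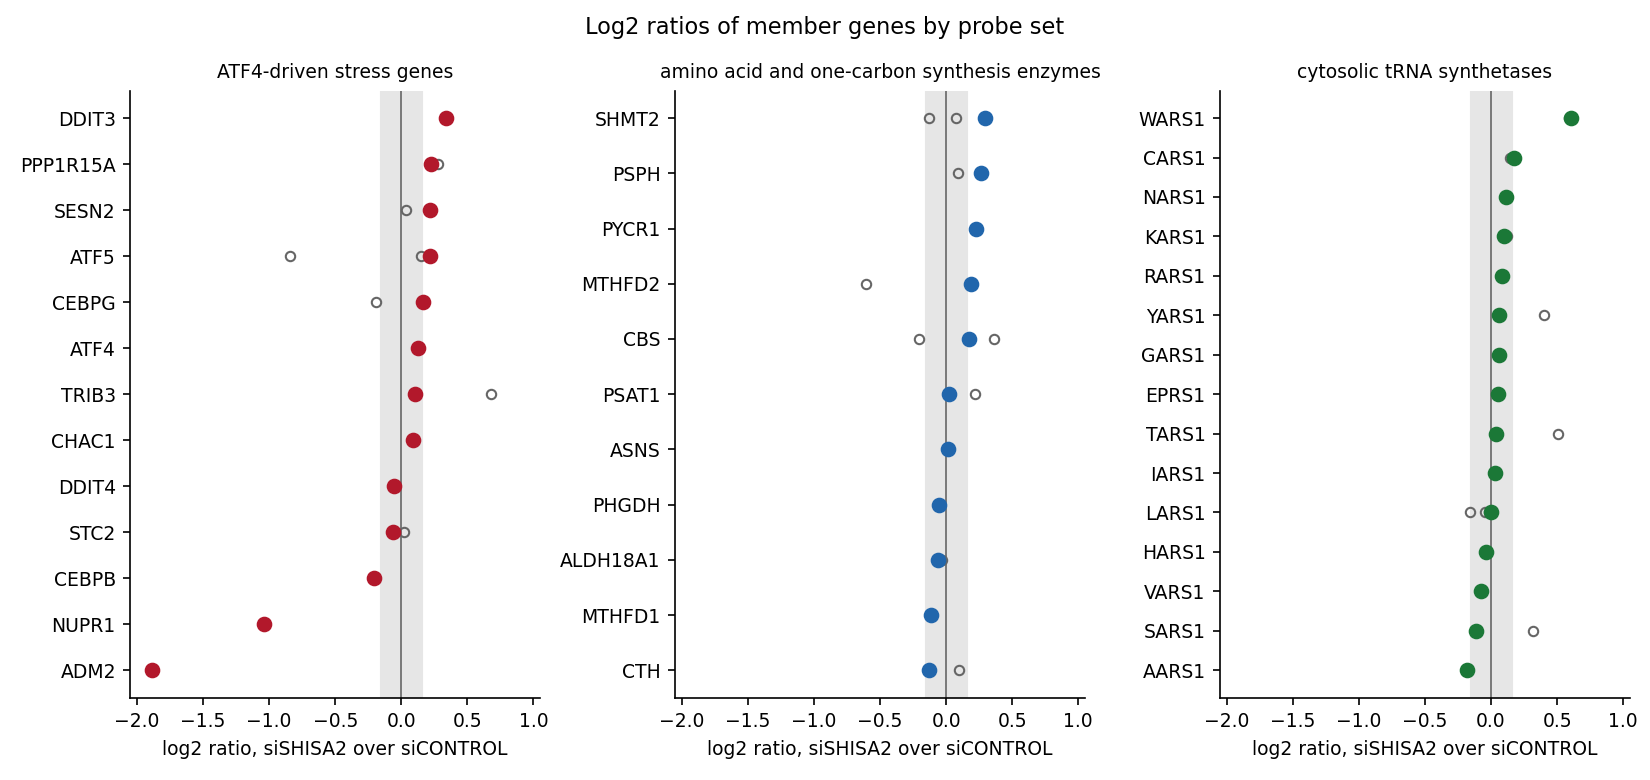
Log2 ratio (siSHISA2 over siCONTROL, horizontal axis) of each measured member, with filled points for the probe set with the highest mean signal, open points for the gene's other measured probe sets and a grey band of 0.155 on each side of 0, the within-gene spread of strong probe sets. ADM2 and NUPR1 lie far to the left, WARS1 stands at 0.61 and most other filled points lie in or near the band.

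The 3 groups had medians of 0.10 for the stress genes (8 of 13 above 0), 0.02 for the synthesis enzymes (7 of 11) and 0.05 for the tRNA synthetases (10 of 15), where all measured genes had a median of 0.01. In fold terms these are 1.074, 1.015 and 1.035. The differences between the 3 medians were not tested. The stress genes were the most dispersed group, with an SD of 0.63, which was 0.16 over the 11 with both signals above 387.3. The SD was 0.16 for the synthesis enzymes and 0.18 for the synthetases, and 0.10 for the synthetases without WARS1, a gene left out after its value was seen.

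**Figure D2:**
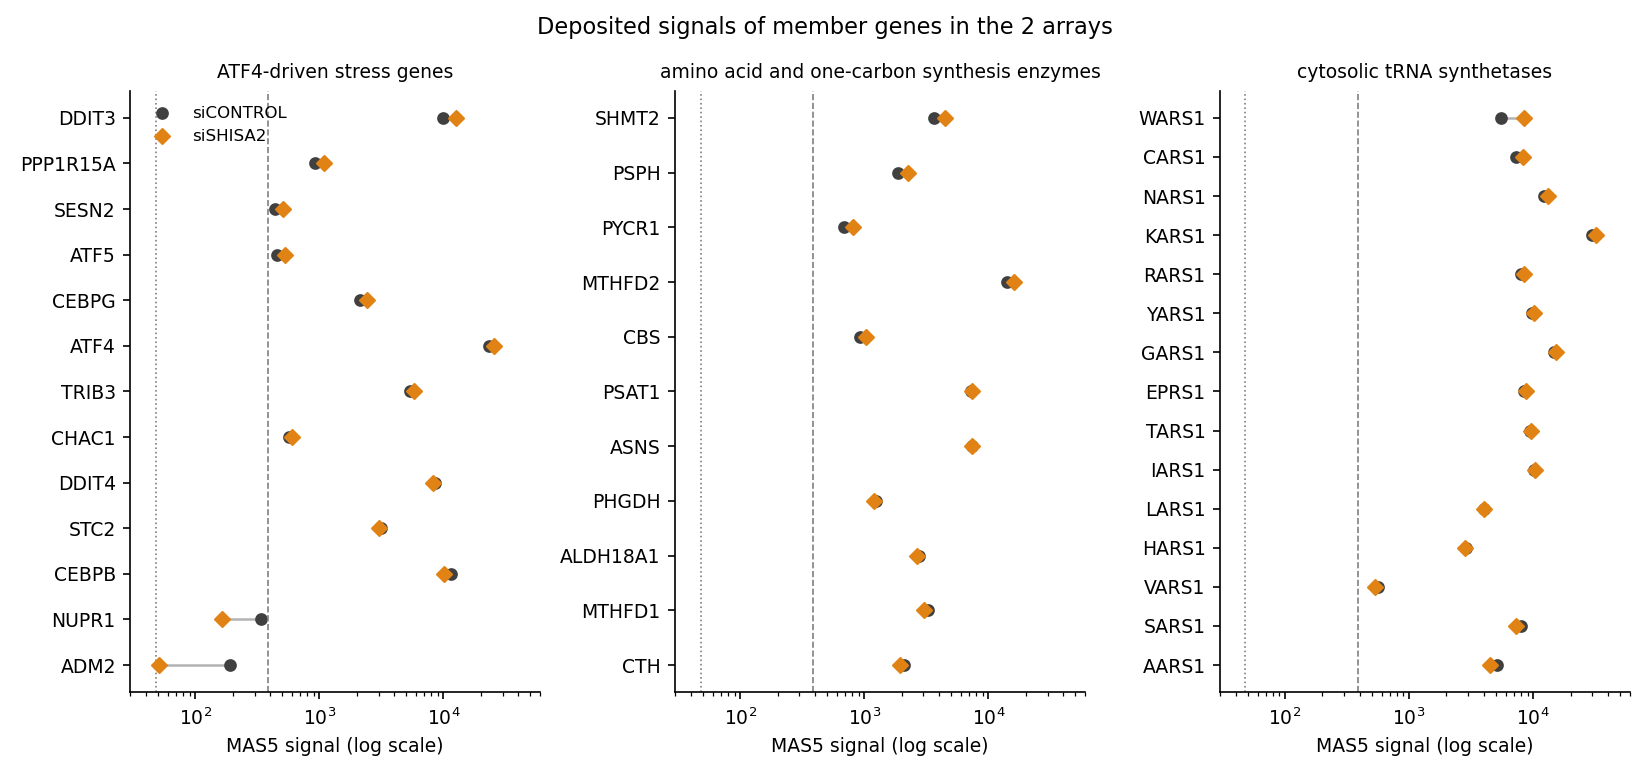
Deposited MAS5 signals (logarithmic axis) of each measured member in the siCONTROL (circles) and siSHISA2 (diamonds) arrays, with lines at 47.9 (dotted) and 387.3 (dashed). For all members except ADM2, NUPR1 and WARS1 the 2 symbols nearly touch, and ADM2 and NUPR1 lie below the dashed line in both arrays.

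Among the transcription factors, ATF4 itself had a control signal of 23452 and a knockdown signal of 25577, a log2 ratio of 0.13. ATF5, a related factor translated by the same upstream-frame mechanism, read 452.5 and 524.8 (0.21). Of its 3 other probe sets, 1 read 171.5 and 198.7 (0.21), and the others had a signal under the floor in 1 array and went opposite ways (85.9 and 41.6, 13.5 and 53.0). CEBPG, the dimer partner of ATF4 on CARE sites, read 2136 and 2399 (0.17), but its other probe set had the opposite sign, at 1745 and 1531 (-0.19). CEBPB, a further C/EBP partner that also serves inflammatory and differentiation programmes, read 11597 and 10044 (-0.21), the lowest ratio among the strong members. The factors thus did not move as one, and the gap between both probe sets of CEBPG exceeded each factor's ratio on its strongest probe set.

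DDIT3, which encodes the death-promoting factor CHOP, had the highest ratio of the stress genes on the positive side. Read by 1 probe set, it went from 9941 (control) to 12544 (knockdown), 1.262-fold higher (log2 ratio 0.34), and 322 of the 7650 strong genes had a higher ratio. Its ratio stayed between 0.28 and 0.35 under the 3 alternative scalings. The other alternatives could hardly move a gene with strong signals and 1 probe set. TRIB3, a pseudokinase that DDIT3 and ATF4 induce and that restrains ATF4, read 5419 and 5818 (0.10). CHAC1, which degrades glutathione and carries a CARE core in its promoter, read 563.8 and 600.2 (0.09). These direct targets of the DDIT3 and ATF4 pair were thus within 0.155 of 0 on their strongest probe sets, while a weak second probe set of TRIB3 read 99.5 and 159.6 (0.68).

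The other strong stress genes, PPP1R15A, SESN2, DDIT4 and STC2, did not share a direction on their strongest probe sets. PPP1R15A, also called GADD34, which brings phosphatase to eIF2 and so ends the response, read 922.3 and 1081 (0.23), and 634.3 and 768.7 (0.28) on its other probe set. SESN2, an inhibitor of the growth kinase mTORC1 that is also a target of p53 and NRF2, read 441.3 and 512.6 (0.22), and 388.7 and 397.6 (0.03) on its other one. DDIT4, a second mTORC1 inhibitor known also from hypoxia, read 8507 and 8167 (-0.06). STC2, a secreted glycoprotein, read 3165 and 3032 (-0.06), with 0.02 on its other probe set. Of these 4 genes, only PPP1R15A was beyond 0.155 on all of its probe sets.

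Both stress genes that differed by at least 2-fold were weakly detected. ADM2, a secreted peptide also called intermedin, had a control signal of 189.7 and a knockdown signal of 51.4, 3.691-fold lower (log2 ratio -1.88), with the knockdown signal barely above the floor of 47.9. NUPR1, a small chromatin-associated stress protein, read 340.0 and 165.4, 2.056-fold lower (-1.04), on an _s_at probe set, a kind whose probes may match further transcripts. Each was read by 1 probe set, so neither value could be compared within its gene. Of all measured genes, 0.0155% had a lower ratio than ADM2 and 0.472% a lower one than NUPR1. VLDLR, a lipoprotein receptor induced by ATF4, was not above the floor (29.0 and 35.8).

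In the serine pathway, the 3 enzymes from glycolysis to serine read between -0.06 and 0.26 on their strongest probe sets. PHGDH, which takes 3-phosphoglycerate out of glycolysis and commits it to serine, read 1241 and 1193 (-0.06). PSAT1, the transaminase of the second step, read 7211 and 7318 (0.02), and 679.7 and 789.5 (0.22) on its other probe set. PSPH, the phosphatase that releases serine, read 1883 and 2261 (0.26), and 608.4 and 647.7 (0.09). Both probe sets of PSPH were above 0, the stronger one at 1.201-fold, but on the weaker probe sets PSAT1 had the higher ratio of the 2 genes.

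SHMT2, which splits serine into glycine and a one-carbon unit inside mitochondria, read 3648 and 4469, 1.225-fold higher (0.29). Its 2 other probe sets gave 0.08 and -0.13, at signals of 1173 and 1237 and of 598.2 and 545.5. MTHFD2, the next mitochondrial enzyme of the folate cycle, read 14132 and 16112 (0.19), while a weak probe set of the same gene read 307.1 and 201.5 (-0.61). MTHFD1, the cytosolic enzyme of the same reactions, read 3279 and 3033 (-0.11). The mitochondrial pair therefore stood above and the cytosolic enzyme below 0 on their strongest probe sets, but within SHMT2 and MTHFD2 the probe sets differed by more than the genes did. SHMT1, the cytosolic counterpart of SHMT2, and MTHFD1L, a mitochondrial synthetase of formate, were not above the floor on the 2 single-gene probe sets of each (highest signals 47.4 and 22.6), and 2 further probe sets of each are shared with another gene and were not used.

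ASNS, the asparagine synthetase and a standard readout of ATF4 activity, was level at 7325 and 7380 (log2 ratio 0.01). The proline enzymes differed from each other, with ALDH18A1, the first enzyme from glutamate, at 2763 and 2649 (-0.06) and PYCR1, the mitochondrial reductase of the last step, at 690.7 and 809.0 (0.23). In transsulfuration, which makes cysteine from homocysteine, CBS read 915.4 and 1033 (0.17, with 0.36 and -0.20 on its other probe sets). CTH, the second enzyme, read 2107 and 1925 (-0.13), with 0.10 on its other probe set. No synthesis enzyme reached 1.5-fold in either direction, and the group's median changed sign with quantile normalization (-0.01) and without _x_at and _s_at probe sets (-0.06, 8 genes measured).

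The tRNA synthetases, which load each amino acid on its tRNA, ran from -0.18 to 0.61. Without WARS1, left out for its value, the other 14 ran from -0.18 to 0.17. At the lower end was AARS1 (alanine), at 5072 and 4469 (-0.18), and at the upper end CARS1 (cysteine), at 7287 and 8222 (0.17), whose 2 other probe sets gave 0.15 and 0.16. Those 2 enzymes both carry a CARE core.

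The 5 measured enzymes of the multi-synthetase complex, a cytosolic assembly of several synthetases, were EPRS1, IARS1, KARS1, LARS1 and RARS1. Their ratios ran from -0.0024 (LARS1) to 0.10 (KARS1, which read 29837 and 31888). The other 10 synthetases ran from -0.18 to 0.61, and both subsets had a median of 0.05. EPRS1, which joins glutamate and proline charging in 1 chain, read 0.05, 0.05 and 0.06 on its 3 probe sets. GARS1, which like KARS1 supplies both the cytosol and mitochondria, read 14683 and 15308 (0.06). The rest were NARS1 at 0.11, RARS1 at 0.08, YARS1 at 0.06, TARS1 at 0.04, IARS1 at 0.03, HARS1 at -0.04, VARS1 at -0.08 and SARS1 at -0.11. Weak second probe sets of TARS1 (88.5 and 125.8), YARS1 (111.9 and 147.4) and SARS1 (480.3 and 599.4) gave 0.51, 0.40 and 0.32. MARS1 was represented only by 3 probe sets shared with another gene and was not analysed here.

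WARS1, the tryptophan enzyme, stood apart from the other synthetases. Its control signal was 5484 and its knockdown signal 8354.5, 1.523-fold higher (log2 ratio 0.61), and its other probe set read 1988 and 2996 (0.59). Both probe sets therefore gave nearly the same ratio, which was 3.93 times the within-gene spread of 0.155. Of the 7650 strong genes, 48 had a higher ratio. The ratio stayed between 0.58 and 0.62 under every alternative processing.

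WARS1 is known as an interferon-induced gene, besides its place among the synthetases. The core of the interferon-stimulated response element, a pair of GAAA half-sites with 2 bases between them, was found in 1 of the 13 synthetases with a RefSeq window, and that gene was WARS1. Among all 36 members it was found in WARS1 and ATF5 (5.56%, against 4.38% of all genes). In WARS1 it began 55 bases before the downstream one of its 2 RefSeq start sites, and a gamma-activated site core, TTCNNNGAA (9.38% of all genes), began 142 bases before it. No CARE core was found in either RefSeq window of WARS1. The 250 bases before that start site are printed for WARS1 beside those of ASNS and CHAC1, an enzyme and a stress gene with a CARE core and ratios of 0.01 and 0.09, with the matched cores of the searched motifs in capitals:
WARS1 (chr14:100375348-100375597, minus strand): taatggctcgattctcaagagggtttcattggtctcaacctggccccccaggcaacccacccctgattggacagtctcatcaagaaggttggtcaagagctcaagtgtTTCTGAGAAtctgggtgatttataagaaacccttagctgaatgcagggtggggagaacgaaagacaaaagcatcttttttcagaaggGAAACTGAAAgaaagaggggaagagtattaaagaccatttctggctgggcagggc
ASNS (chr7:97872409-97872658, minus strand): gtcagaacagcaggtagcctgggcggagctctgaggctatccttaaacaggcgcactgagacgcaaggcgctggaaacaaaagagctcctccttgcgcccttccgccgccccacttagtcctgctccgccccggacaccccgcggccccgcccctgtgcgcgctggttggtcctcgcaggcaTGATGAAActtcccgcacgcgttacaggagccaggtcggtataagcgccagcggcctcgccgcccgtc
CHAC1 (chr15:40953221-40953470, plus strand): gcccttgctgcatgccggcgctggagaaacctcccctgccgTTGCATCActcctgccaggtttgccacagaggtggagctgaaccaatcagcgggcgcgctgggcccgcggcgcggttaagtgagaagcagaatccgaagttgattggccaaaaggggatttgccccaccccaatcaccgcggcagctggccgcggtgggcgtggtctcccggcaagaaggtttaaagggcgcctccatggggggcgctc

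In these stretches WARS1 shows both interferon-type cores and no CARE, and ASNS and CHAC1 show a CARE and no interferon-type core. Each stretch was picked for holding a CARE or interferon-stimulated core. WARS1 and ASNS each have 2 start sites, and a start site with such a match was printed. The contrast between the stretches is therefore a description of chosen examples and not a test. The gamma-activated core was not particular to WARS1: 4 of the 36 members held it (11.1%), among them 3 of 13 synthetases, and CARS1 (0.17) and TARS1 (0.04) held it together with a CARE core. Other interferon-gamma-linked genes, a list added after the value of WARS1 was seen, were above 0 in 9 of 11 measured (of 14). That is 81.8%, against 52.2% of all measured genes, and the medians were 0.19 and 0.01. The chemokine CXCL11 read 1062 and 2230 (1.07), IDO1, which degrades tryptophan, 279.3 and 389.1 (0.48), CXCL10 971.3 and 1282 (0.40) and the transcription factor IRF1 1919 and 2294 (0.26). Smaller ratios were those of GBP2 (0.21, with -0.27 on its other probe set), IRF9 (0.19), TAP1 (0.10), PSMB9 (0.07) and GBP1 (0.01). Below 0 were SOCS1, an inhibitor of interferon signalling (-0.12, from -0.95 to 0.73 on 3 probe sets), and the immunoproteasome subunit PSMB8 (-0.03). Their part in the ratio of WARS1 was not tested. Over all measured genes with a RefSeq window, the 417 with the interferon-stimulated core had a median of 0.03 with 54.4% above 0, and the 10063 without it one of 0.01 with 51.2% above 0. That difference was not tested.

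Ratios were also set out by presence of a CARE core. The 9 measured members with the core ran from -0.18 (AARS1) to 0.17 (CARS1) with a median of 0.06, and 8 of 9 were above 0. The 23 measured members whose window lacked it had a median of 0.05, with 13 above 0. This difference was not tested, and some of the signs rest on values near 0. ASNS (0.01) and IARS1 (0.03) fell below 0 with quantile normalization and with the loess trend removed. Among members without the core, PSAT1 (0.02) fell below 0 with quantile normalization. CEBPG, which holds the core, had the opposite sign on its other probe set (-0.19). Over the whole array the 295 measured genes with the core had a median of -0.00 (49.5% above 0), and the 10185 without it one of 0.01 (51.4%). The members with the core were CHAC1, CEBPG, ASNS, AARS1, CARS1, GARS1, IARS1, NARS1 and TARS1, and none reached 1.2-fold. All 9 are strong genes, of which 7.65% over the array were at least 1.2-fold higher and 10.4% lower. With 9 genes, a count of 0 cannot be told apart from those shares.

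**Figure D3:**
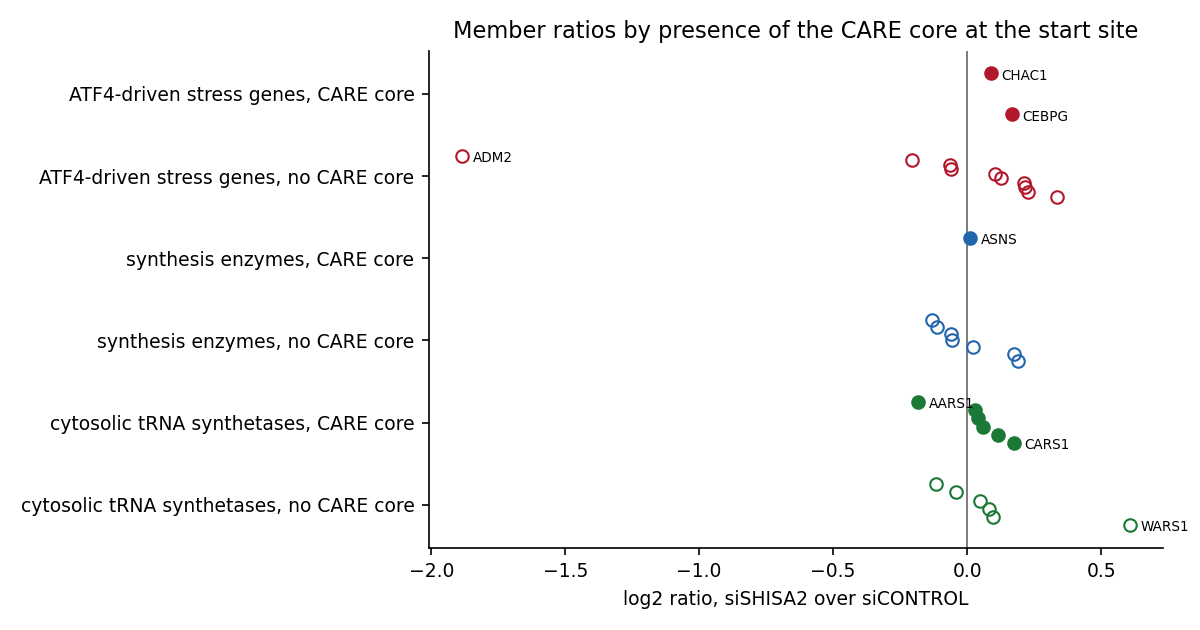
Log2 ratios (siSHISA2 over siCONTROL) of the 32 measured members with a RefSeq promoter window, by group (colour) and by whether the window holds a CARE core (filled points) or not (open points). The 9 filled points lie between -0.18 and 0.17, and the outlying ADM2 and WARS1 are open points.

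The kinases and factors above ATF4 were more often below 0 than above it, by small amounts. Of 15 genes for the eIF2 kinases, eIF2, eIF2B and their partners, 5 were above 0 and 10 below, with a median of -0.05. The share above 0 was 33.3%, against 52.2% of all measured genes. On the strongest probe sets 0 reached 1.2-fold. All of the genes except IMPACT had both signals above 387.3. Of strong genes, 7.65% were at least 1.2-fold higher and 10.4% lower, and of all measured genes 16.7% and 15.6%. EIF2AK4, the kinase GCN2 that senses uncharged tRNA, read 1749 and 1504 (-0.22), with its other probe set at -0.65, so it was lower on both. IMPACT, an inhibitor of GCN2 activation, read 359.5 and 307.6 (-0.22, with 0.19 on its other probe set). EIF2S3, the gamma subunit of eIF2, read 6081 and 5281 (-0.20, with a range from -0.20 to 0.11 on 3 probe sets). EIF2AK2, the kinase PKR that senses double-stranded RNA, read 8660 and 7799 (-0.15, with a range from -0.15 to 0.21 on 3 probe sets). Among the others EIF2S2, the beta subunit, was named after its values were seen, at 0.08 on its strongest probe set and -0.98 on the other. Phosphorylation of eIF2 is not measured by these arrays.

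Among 16 measured genes of a list of other ATF4-linked stress genes, 9 were above 0 and the median was 0.05. TRIB1, a relative of TRIB3, read 3608.5 and 2002 (-0.85), the largest ratio of that list in size. HMOX1, the haem-degrading enzyme that NRF2 also induces, read 4290 and 7322 (0.77), TXNIP, an inhibitor of thioredoxin and of glucose uptake, 4865 and 6940.2 (0.51) and the autophagy receptor SQSTM1 11407 and 14036 (0.30, from 0.30 to 0.95 on 5 probe sets). TRIB1 was thus lower, while TRIB3 (0.10) lay within 0.155 of 0 on its strongest probe set. Of the 16 genes, 3 were at least 1.2-fold higher (18.8%, against 16.7% of all measured genes). At least 1.2-fold lower was 1 (6.25%, against 15.6%).

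Amino acid transporters, which ATF4 induces together with the enzymes, had 6 of 10 above 0 and a median of 0.02. SLC3A2, the shared heavy chain of the cystine and large neutral amino acid carriers, read 3796 and 4543 (0.26), and the cystine carrier SLC7A11 3345 and 3797 (0.18, from 0.11 to 0.48 on 3 probe sets). SLC1A4, a carrier of alanine and serine, read 551.7 and 455.4 (-0.28, from -0.34 to 0.34 on 5 probe sets), and SLC36A4 read 1370.1 and 1142 (-0.26, with 0.30 on its other probe set). The transporter pair that imports cystine, SLC3A2 and SLC7A11, was above 0 on all of its probe sets.

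Other enzymes of serine, folate, proline and aspartate metabolism had 7 of 14 above 0 and a median of -0.06, with 6 at least 1.2-fold lower (15.6% of all measured genes were) and 1 higher (16.7%). Of the 6, PYCR3 and PRODH had a knockdown signal under the floor. GCSH, the lipoyl carrier of the glycine cleavage system, read 3732 and 2543 (-0.55), and TYMS, which uses a folate one-carbon unit to make thymidylate and belongs to the S phase genes, 7677 and 5472 (-0.49). PYCR3, a cytosolic relative of PYCR1, had a control signal of 68.1 and a knockdown signal under the floor, at least 1.422-fold lower. ALDH1L1 read 53.6 and 77.7 (0.54, with -0.30 on its other probe set). GCSH and TYMS were lower on both of their probe sets, and the 2 other genes rest on weak signals.

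Mitochondrial tRNA synthetases had 8 of 15 above 0 and a median of 0.04. WARS2, the mitochondrial tryptophan enzyme, had the highest ratio of them, at 334.6 and 444.9 (0.41), with 0.33 on its other probe set. MARS2 read 144.5 and 180.5 (0.32), YARS2 1399 and 1191 (-0.23) and HARS2 1631 and 1874 (0.20). Of the 4 measured cytosolic subunits and partners outside the members, DTD1, which removes D-amino acids from tRNA, read 2602 and 2103.5 (-0.31). The complex scaffold AIMP1 read 0.14, and the phenylalanine subunits FARSA and FARSB read -0.11 and -0.01. Each of those 3 had a probe set of the opposite sign, at -0.18 for AIMP1, 0.31 for FARSA and 0.61 for FARSB.

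The other branches of the unfolded protein response, through ATF6 and IRE1, had 7 of 16 above 0 and a median of -0.01. PDIA4, a disulfide isomerase, read 16243 and 12756 (-0.35), and CRELD2, DNAJC3 and HYOU1, all proteins of the endoplasmic reticulum lumen, read -0.20, -0.18 and -0.17. All 16 had both signals above 387.3. None was at least 1.2-fold higher, where 7.65% of strong genes and 16.7% of all measured genes were. At least 1.2-fold lower was 1 (6.25%, against 10.4% of strong genes and 15.6% of all measured genes). These values are those of the strongest probe sets. PDIA4 was lower on both of its probe sets (-0.35 and -0.24), while DNAJC3 ran from -0.18 to 0.47 on 4. Any relation of this list to the ratio of DDIT3 (0.34) was not tested.

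**Figure D4:**
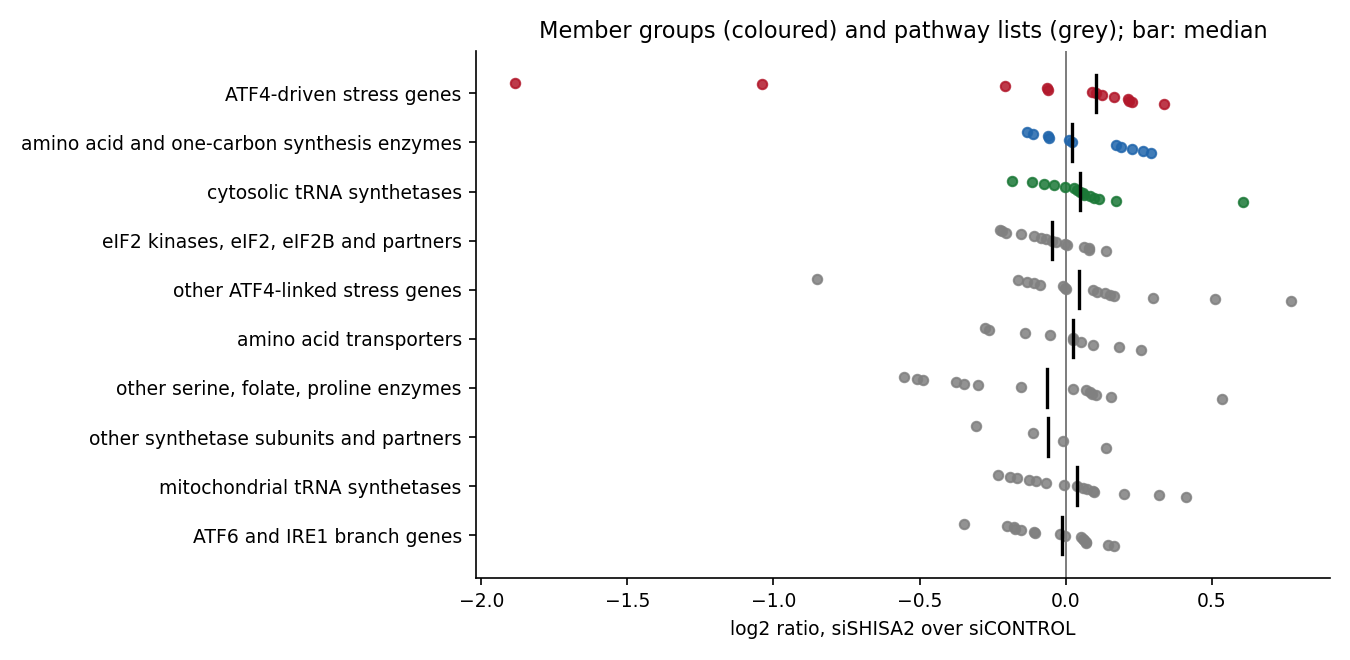
Log2 ratios (siSHISA2 over siCONTROL) of the measured genes of the 3 member groups (coloured) and of 7 lists of neighbouring pathway genes (grey), 1 point per gene, with a black bar at each median. All 10 medians lie between -0.06 and 0.10.

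Probe sets of the same gene gave a check of sign within each group. Among members read by several measured probe sets, all probe sets had the same sign in 7 of 8 tRNA synthetases, 3 of 7 synthesis enzymes and 3 of 6 stress genes. Over all measured genes it was 45.6% of 6428. Those 6428 include genes with weak probe sets, and no share was computed for strong genes alone. The exception among the synthetases was SARS1. With all probe sets of a gene averaged, the stress median went from 0.10 to -0.01, with 6 of 13 above 0, and the synthetase median from 0.05 to 0.08.

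**Figure D5:**
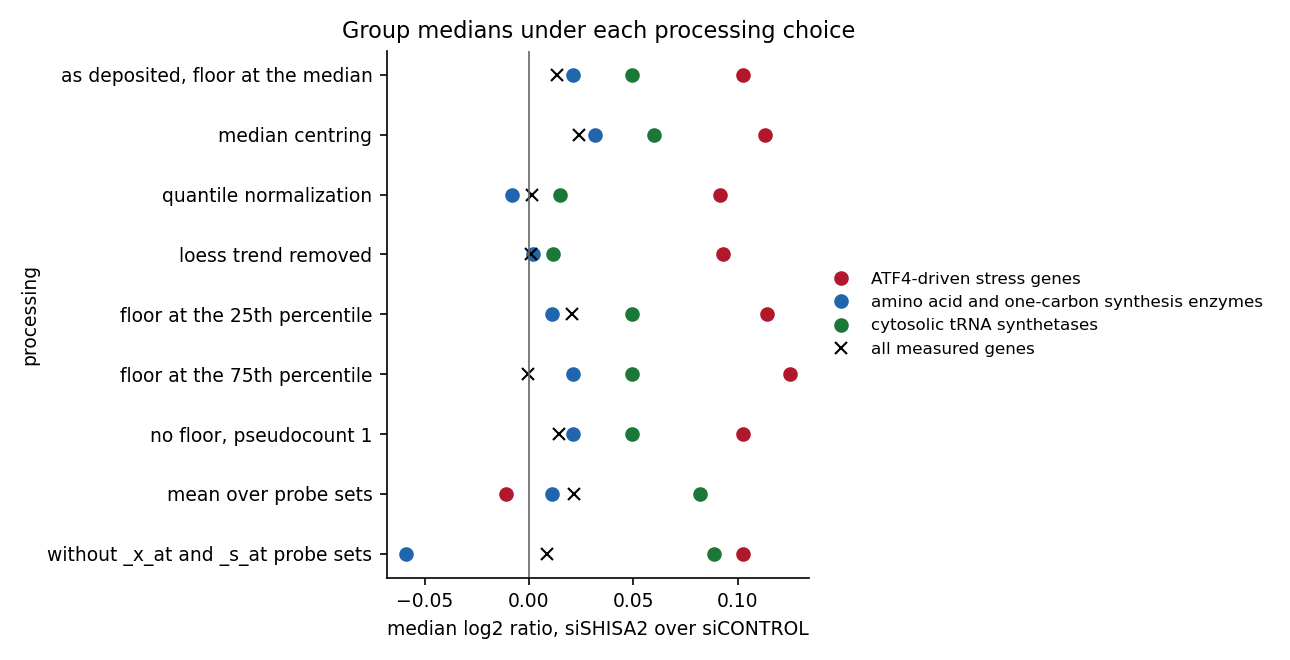
Median log2 ratio (siSHISA2 over siCONTROL) of the 3 member groups and of all measured genes under each processing choice. The stress genes lie at 0.09 or above under every choice shown except the mean over probe sets (-0.01), the synthetases between 0.01 and 0.09, and the synthesis enzymes between -0.06 and 0.03.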

How the data were processed

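The 2 samples were grouped by their titles. The deposited values are probe-set intensities on a linear scale, which the authors computed with MAS5 (per the submitters' processing notes, with no version given). The 2% trimmed mean was 499.9 on both arrays, and no further scaling was applied. MAS5 signals near background are noisy, so signals under 47.9, the median of non-control signals, were raised to it, and a ratio with 1 such signal is written as at least. Of 54675 probe sets, 62 were controls, 41097 had 1 gene symbol, 1801 had several and 11777 were not in the annotation used. Gene identifiers of 41043 matched RefSeq (GRCh38.p14) and 0 symbols changed. Levels of different probe sets are not comparable with each other. Precision is limited by there being 2 arrays.

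Members and lists were chosen with earlier results of these data known. All measured members are named, with SHISA2 and up to 4 genes per pathway list, ranked by size of ratio; SOCS1, PSMB8, PRODH, EIF2S2, marker genes and the interferon-linked list fall outside that rule and were named after values were seen. Ratios, medians and the loess trend (span 0.3) were computed in Python 3.11.15 with pandas 2.3.3, numpy 2.4.6 and statsmodels 0.14.6, after a check on simulated data. Promoter windows came from RefSeq. Alternatives were 3 scalings, 3 floors or pseudocounts, averaging of probe sets, leaving out shared probe sets, and other size thresholds.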

Additional observations from a re-analysis of the deposited data

How the results depend on the processing

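With 1 array per group no replicate could be left out, and no paired analysis was possible because each group has a single array. Of 298 single-gene values under 8 alternatives, 294 moved by less than 0.286 and 0 of the genes at least 2-fold apart changed sign. The 4 that moved more came from averaging probe sets (2) or leaving out _x_at and _s_at probe sets (2). These counts say little about stability, because 0.286 exceeds the ratio of most members in size. SARS1 went from -0.11 to 0.10 with probe sets averaged and still counts among the 294. A changed floor leaves most strong members as they were, and averaging cannot alter a gene with 1 measured probe set. Of the 39 members, 30 kept their sign under every alternative that measured them (18 above 0, 12 below) and 35 under the 3 scalings; the exceptions there were ASNS, PSAT1, IARS1 and LARS1. The count at least 2-fold apart was 2 as deposited, 3 at a size of 1.5-fold, 6 at 1.2-fold, 0 with the floor at 387.3 and 1 without _x_at and _s_at probe sets. The count above 0 was 16 of 27 without those probe sets. The stress median was -0.011 with probe sets averaged. On second-brightest probe sets, an alternative chosen after seeing the data, the synthetase median was 0.23 over the 8 genes that have one. Signal over background limits ADM2 and NUPR1, neither of which was measured with the floor at 387.3, although without a floor (pseudocount 1) they read -1.86 and -1.04. The cause of these differences was not tested.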
